A study of Mus musculus with 6 samples.

Results

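The 10 genes described here encode brakes on cell division: the CDK inhibitor genes Cdkn1a, Cdkn1b, Cdkn2b, Cdkn2c and Cdkn2d, the stress-sensor genes Gadd45a, Gadd45b and Gadd45g, and the antiproliferative genes Btg1 and Btg2. They were chosen by name, with earlier results of these data known. Every E2A peak whose annotated gene symbol was one of the 10 was taken, at any distance. This gave 162 of the 91185 peaks in 5 peak lists. The lists came from chromatin immunoprecipitation and sequencing (ChIP-seq) with an antibody against E2A in neural stem cells grown from C57BL/6J mouse embryos of embryonic stage E12.5. All cells proliferated in FGF-2 and EGF (20 ng/ml each) and were fixed with EGS, a protein crosslinker, and formaldehyde. There were 3 wild-type libraries (wt replicates 1 to 3), 1 library from E12 KO cells (E12KO) and 1 from E47 KO cells (E47KO), while the wild-type input library was not analysed here. The labels give no detail of the knockout alleles and do not say whether the libraries came from separate embryos or cultures. Each knockout has 1 library, so no test between genotypes was made. Peak lists record binding and not expression, so the labelled cell type could not be checked against its markers.

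E2A proteins are basic helix-loop-helix factors made from Tcf3, and E12 and E47 are its splice forms. They bind DNA at E-boxes, whose letters are CANNTG. Cyclin-dependent kinases (CDKs) drive cells through the cycle. The CIP/KIP inhibitors p21 (Cdkn1a) and p27 (Cdkn1b) bind CDK and cyclin complexes, while the INK4 inhibitors bind CDK4 and CDK6 alone. GADD45 proteins link stress to kinase signalling and DNA repair. BTG proteins recruit the enzymes that remove poly(A) tails from mRNA, and Btg2 is known as a gene of neural progenitors that are about to divide into neurons.

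Binding was unevenly spread over the 10 genes. Gadd45g carried 46 peaks over the 5 lists, Btg1 29, Btg2 24, Gadd45b 20, Cdkn2b 15, Cdkn1b 9, Cdkn2c 7, Cdkn1a 6, Gadd45a 5 and Cdkn2d 1. At any distance, the genes of the GADD45 and BTG families other than Gadd45a thus held most of the peaks, and 3 of the 5 CDK inhibitor genes had fewer than 8. The order differed within 50 kb of the start site. There Btg2 had 24 peaks, Gadd45b 20 and Gadd45g 11, while Btg1 had 9, as did Cdkn1b. Cdkn2c had 7, Cdkn1a 6, Cdkn2b and Gadd45a 5 each, and Cdkn2d 1. The 10 genes together had 15, 23 and 43 peaks in wt replicates 1, 2 and 3, which is 27 ± 14.4 (SD, n = 3), with 39 in E12KO and 42 in E47KO. The lists hold 6814, 12772, 24194, 25229 and 22176 peaks in the same order, so the 2 shortest lists had the fewest peaks at these genes, while the longest, E12KO, had fewer than wt replicate 3 and E47KO. As a share of the list they were 0.22%, 0.18% and 0.178% in the wt lists (0.193% ± 0.024, SD, n = 3). E12KO stood at 0.155% (95% Wilson interval 0.113 to 0.211, counting error only) and E47KO at 0.189% (0.14 to 0.256). The E12KO share lay below all 3 wt values, but its interval holds 2 of them. The intervals take peaks as independent, although Gadd45g gives 11 of the 39 in E12KO, and the difference was not tested. The tables hold no read totals, so the depth of each library is unknown.

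**Figure D1:**
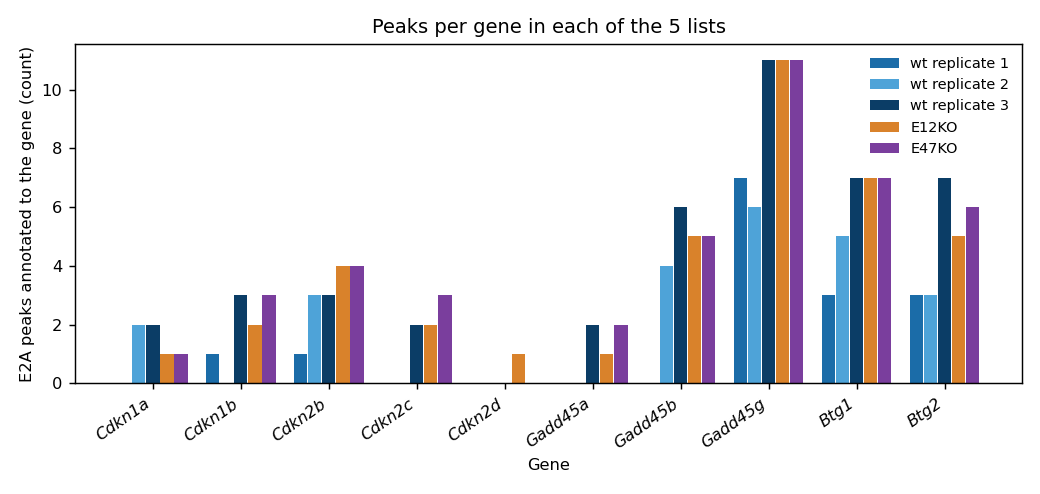
Number of E2A peaks annotated to each gene (y axis, count) for the 10 genes (x axis), with 1 bar per list: 3 wt lists in blue, E12KO in orange and E47KO in purple. Gadd45g reaches 11 peaks in wt replicate 3 and in both knockouts, Cdkn2d has 1 peak in E12KO alone, and wt replicate 1 has bars at 5 of the 10 genes.

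Wild-type peaks that overlapped by at least 1 bp were merged into regions, and a region found in at least 2 of the 3 wt lists is called a wt consensus region. The 10 genes had 44 of the 26817 wt regions and 26 of the 12322 consensus regions. Within 10 kb of the start site, 7 of the 10 genes had a consensus region: Cdkn1a, Cdkn1b, Cdkn2b, Gadd45b, Gadd45g, Btg1 and Btg2. Over all 21900 protein-coding genes of the RefSeq table the share was 16.7%, and it was 32% over the protein-coding genes that any of the 5 lists names. The count rests on wt replicates 2 and 3. Without wt replicate 2, when a region must be in both remaining lists, 3 of 10 genes had one against 7.75% of all genes, and without wt replicate 3 it was 2 of 10 against 5.27%.

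List by list, a peak within 10 kb was present at 3 of the 10 genes in wt replicate 1 (9.25% of all protein-coding genes), 6 in wt replicate 2 (15.5%) and 9 in wt replicate 3 (31%). Both knockouts had one at 9 of the 10, against 34.3% of all genes in E12KO and 29.1% in E47KO. In the 3 longest lists the missing gene was Cdkn2d. In all 5 lists, such a peak was present at 2 of the 10 genes, Cdkn2b and Gadd45g, against 5.65% of all genes. Cdkn1a, Gadd45b, Btg1 and Btg2 had the same pattern, absent from wt replicate 1 and present in the other 4 lists, which 8.22% of protein-coding genes shared. Cdkn2c and Gadd45a were absent from wt replicates 1 and 2 and present in the other 3 lists, as were 7.76% of protein-coding genes. Cdkn1b alone of the 10 was absent only from wt replicate 2, a pattern held by 1.7%. The genes that share these patterns are too many to name.

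A start site lay inside a peak in at least 2 wt lists at 5 of the 10 genes, Cdkn2b, Gadd45b, Gadd45g, Btg1 and Btg2, against 6.86% of protein-coding genes. The 250 bases before the RefSeq start site (GRCm38.p6) of these 5 genes are shown because their start sites were bound in repeated wild-type lists. All 10 genes matched the RefSeq promoter table, with 12 promoters between them. Each sequence runs 5′ to 3′ towards the gene, and capitals mark every match to CANNTG, a motif that reads the same on both strands. They lie at chr13:51846425-51846674, chr10:80929841-80930090, chr4:89311033-89311282, chr10:96616751-96617000 and chr1:134079156-134079405, on the plus strand for Gadd45g, Gadd45b and Btg1 and on the minus strand for Cdkn2b and Btg2. Peak positions in the files are in mm9 and were not converted.
Gadd45g: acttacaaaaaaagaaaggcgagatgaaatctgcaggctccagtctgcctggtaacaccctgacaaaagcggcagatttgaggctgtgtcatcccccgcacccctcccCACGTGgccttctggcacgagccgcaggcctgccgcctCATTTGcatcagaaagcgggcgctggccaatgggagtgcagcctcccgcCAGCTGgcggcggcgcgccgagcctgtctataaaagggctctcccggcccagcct
Gadd45b: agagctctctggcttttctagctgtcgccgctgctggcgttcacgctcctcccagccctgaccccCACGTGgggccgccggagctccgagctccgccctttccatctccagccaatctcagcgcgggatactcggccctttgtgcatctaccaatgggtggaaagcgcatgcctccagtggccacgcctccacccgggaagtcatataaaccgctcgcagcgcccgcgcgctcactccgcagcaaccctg
Cdkn2b: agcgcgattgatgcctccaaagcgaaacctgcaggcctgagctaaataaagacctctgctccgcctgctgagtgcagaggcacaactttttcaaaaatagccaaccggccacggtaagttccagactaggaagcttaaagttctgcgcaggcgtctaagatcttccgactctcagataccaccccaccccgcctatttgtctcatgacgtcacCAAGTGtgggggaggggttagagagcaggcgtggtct
Btg1: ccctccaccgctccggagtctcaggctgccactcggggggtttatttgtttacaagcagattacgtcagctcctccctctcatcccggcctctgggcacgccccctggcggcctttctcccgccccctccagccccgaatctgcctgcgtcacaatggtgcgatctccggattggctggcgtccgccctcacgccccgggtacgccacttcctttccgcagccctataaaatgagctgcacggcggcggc
Btg2: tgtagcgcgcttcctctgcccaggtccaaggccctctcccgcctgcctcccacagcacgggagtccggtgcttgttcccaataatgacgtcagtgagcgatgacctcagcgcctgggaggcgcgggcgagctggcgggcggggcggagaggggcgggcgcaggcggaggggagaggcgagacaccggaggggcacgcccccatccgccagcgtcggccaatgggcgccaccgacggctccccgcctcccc

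The Gadd45g window held 3 matches. CACGTG began 142 bases before its start site, CATTTG 104 bases and CAGCTG 55 bases before it. The Gadd45b window held 1 match, CACGTG, which began 185 bases before the start site. The Cdkn2b window also held 1, CAAGTG, at 37 bases. The windows of Btg1 and Btg2 held none, although their start sites lay in peaks in 4 of the 5 lists. Over all 12 promoters of the 10 genes, 5 had a CANNTG match, against 66.2% of the 32851 promoters in the table. CAGCTG stood in 1 of the 12, that of Gadd45g, against 13% of all promoters. The letters CAGGTG, read as CACCTG on the other strand, were in 1, a promoter of Cdkn1a, against 17.2%. The letters CACGTG were in 2, those of Gadd45b and Gadd45g, against 6.02%. Each of these forms is itself a CANNTG match. The windows are shorter than most of the peaks, so a missing match says only that the letters are not in these 250 bases. A match in a window likewise does not place it in a peak. In wt replicate 1 the stronger Gadd45g promoter peak, at 18.9-fold, ended 441 bp upstream of the start site in mm9.

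**Figure D2:**
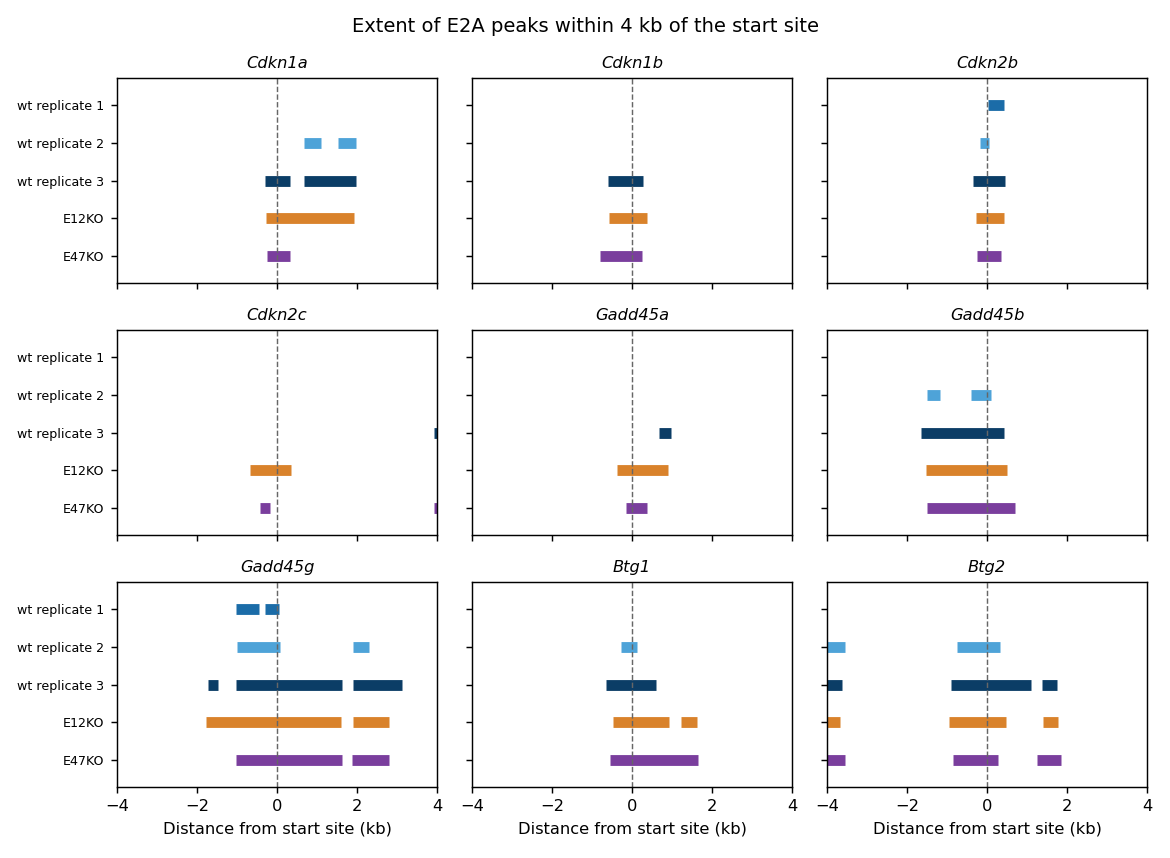
Extent of each peak (horizontal bars) in kb from the start site (dashed line, downstream to the right) for 9 of the 10 genes, with 1 row per list. Bars cover the start site in all 5 lists at Gadd45g and in 4 lists at Cdkn2b, Gadd45b, Btg1 and Btg2. Distances are to the start site of the transcript that the authors assigned to the peak.

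Cdkn1a, which encodes p21, the inhibitor induced by p53, was bound at its start site and just inside the gene on chromosome 17 (mm9). In wt replicate 3 a peak from 29230425 to 29231051 held the start site and another ran from 29231399 to 29232689. Wt replicate 2 had 2 shorter peaks overlapping the second of these, starting 674 and 1525 bp downstream of the start site, and none at the start site. E12KO had 1 peak of 2198 bp that spanned both, wider than or equal to 98.7% of its list. E47KO had a 587 bp peak at the start site only. The inner region was therefore a wt consensus region with no E47KO peak, and wt replicate 1 had no Cdkn1a peak, so 1 wild-type list lacked it as E47KO did.

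Cdkn1b encodes p27, which holds progenitors of many tissues out of the cycle. A peak held its start site on chromosome 6 in wt replicate 3 (134869828 to 134870696), E12KO and E47KO, with widths of 869, 938 and 1035 bp, and in neither of the shorter wt lists. The only consensus region of the gene lay downstream. Its peaks began 7728 bp from the start site in wt replicate 3, 8043 bp in wt replicate 1, 7669 bp in E12KO and 7880 bp in E47KO, and wt replicate 2 had none. In wt replicate 1 this peak had a fold enrichment of 4.22, the authors' ratio of ChIP to background, and 4.07% of that list lay at or below it. A further site, 21945 bp downstream, was listed in wt replicate 3 and E47KO only.

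Cdkn2b, which encodes p15 and lies beside Cdkn2a, was the CDK inhibitor gene with most peaks when peaks at any distance were counted. Within 50 kb of the start site it had 5, fewer than Cdkn1b with 9, Cdkn2c with 7 and Cdkn1a with 6. Its start site on chromosome 4 lay in a peak in wt replicate 2 (233 bp wide), wt replicate 3 (797 bp), E12KO (703 bp) and E47KO (608 bp). The peak of wt replicate 1, from 88956523 to 88956914 at 6.16-fold, ended 27 bp short of the start site on its downstream side. The merged region, 88956495 to 88957291, was thus in all 5 lists. A pair of distant consensus regions, 137 and 180 kb upstream (137282 and 179569 bp in wt replicate 3), lay in introns 5 and 7 of the unnamed transcript uc008toj.1. Both were in every list except wt replicate 1. A further site 131707 bp upstream in the same intron 5 was listed in E47KO and, overlapping it, in E12KO, and in no wt list. These distant sites were assigned to Cdkn2b by the nearest start site alone.

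Cdkn2c, which encodes p18, had no consensus region. Wt replicate 3 listed peaks 3921 bp downstream of the start site, in the 3′ UTR, and 7423 bp downstream, in an exon of another transcript. E47KO had both (3910 and 7541 bp) and E12KO had the second (7547 bp). At the Cdkn2c promoter, peaks stood in the knockout lists only. In E12KO a 1036 bp peak, 109338902 to 109339937 on chromosome 4, held the start site of the longer transcript, and in E47KO a 263 bp peak, 109339436 to 109339698, lay inside that span, 174 bp upstream of the start site. The longest wt list, that of replicate 3, had no peak there, and it holds fewer peaks than the E12KO list and more than the E47KO list.

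The single peak annotated to Cdkn2d, which encodes p19 of the INK4 family, does not lie at that gene. It was an E12KO peak on chromosome 9, from 123848797 to 123849094, 11937 bp downstream of a transcript that the authors' table places at 123836860 to 123839607 on the plus strand. The neighbouring peaks there are annotated to Fyco1 and Ccr3. In the RefSeq table, Cdkn2d stands between Kri1 and Ap1m2, and in the deposited tables Ap1m2 is 103 Mb away from that transcript. Between Keap1 (ending at 21043776) and the Ap1m2 start site (21116777), the stretch that holds Kri1 and Cdkn2d in RefSeq order, none of the 5 lists had a peak. No list therefore had a peak that can be assigned to Cdkn2d by position.

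Among the GADD45 genes, Gadd45a had the fewest peaks. In wt replicate 3 a 309 bp peak lay 675 bp inside the gene on chromosome 6 (66986418 to 66986726), and wt replicates 1 and 2 had none. E12KO had a 1281 bp peak (66986506 to 66987786) that overlapped it and held the start site. The E47KO peak (66987018 to 66987553) held the start site and did not reach the wt replicate 3 peak. Another site, 11640 bp upstream in wt replicate 3, was also in E47KO (11604 bp) and not in E12KO.

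Gadd45b had one of the broadest start-site peaks of the 10 genes. On chromosome 10 its widths were 2062 bp in wt replicate 3 (80391195 to 80393256), 2038 bp in E12KO and 2203 bp in E47KO, at or above 99%, 98.1% and 99.3% of the peaks in those lists. Wt replicate 2 had 2 shorter peaks inside that span, of 337 and 515 bp, and wt replicate 1 had none. A chain of further sites followed downstream. Consensus regions lay 10295 bp (80403131 to 80403829) and 33211 bp (80426047 to 80426691) from the start site, the latter in intron 2 of Gng7, a G protein subunit gene. Both were in every list except wt replicate 1. Sites 6427 and 7630 bp downstream in wt replicate 3 were absent from wt replicates 1 and 2 and from E47KO, and E12KO had the first of them. A site 13640 bp downstream in wt replicate 3 was also in both knockouts, and E47KO alone had a peak 30871 bp downstream.

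Gadd45g had the most consensus regions of the 10 genes, 8, a number that 0.557% of protein-coding genes reached or exceeded. At any distance, it had 7, 6 and 11 peaks in wt replicates 1 to 3 (8 ± 2.65, SD, n = 3) and 11 in each knockout, equal to the highest wt count. Within 50 kb of its start site, Gadd45g had 11 peaks over the 5 lists, fewer than Btg2 with 24 and Gadd45b with 20. The start site, on chromosome 13, lay in a peak in all 5 lists. That peak was 334 bp wide in wt replicate 1, 1074 bp in wt replicate 2, 2652 bp in wt replicate 3, 3360 bp in E12KO and 2648 bp in E47KO. The merged wild-type region, 51941009 to 51943660, covers most of the short gene (51942044 to 51943843). In the 3 longest lists this peak was at least as wide as 99.7%, 99.8% and 99.6% of all peaks. Wt replicate 1 had a second peak 441 bp upstream (51941011 to 51941603), and it, not the peak on the start site, carried the higher fold enrichment, 18.9 against 4.37. A separate consensus region began 1896 bp downstream in wt replicate 2 and was present in all lists but wt replicate 1. Wt replicate 3 also had a small peak 1477 bp upstream, and the wide E12KO peak reached over it.

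The other consensus regions of Gadd45g, assigned to it by the nearest start site alone, were strung out downstream as far as 308 kb. They began 56182, 73773, 82986, 99239, 133747 and 307648 bp from the start site in wt replicate 3, and each had a peak in both knockouts. Those at 56, 74 and 134 kb were in all 5 lists. Wt replicate 2 lacked those at 83 and 308 kb, and wt replicate 1 the one at 99 kb. The strongest was the 74 kb region (52015754 to 52017072), at 18.2-fold in wt replicate 1, which 91.2% of that list did not exceed. The others with a score were lower, between 5.05 and 7.83. Sites 72537 and 233029 bp downstream were in wt replicate 3 and both knockouts. In the knockouts a further pair of overlapping peaks, 71071 bp downstream in E12KO and 71097 bp in E47KO, had no counterpart in a wt list.

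**Figure D3:**
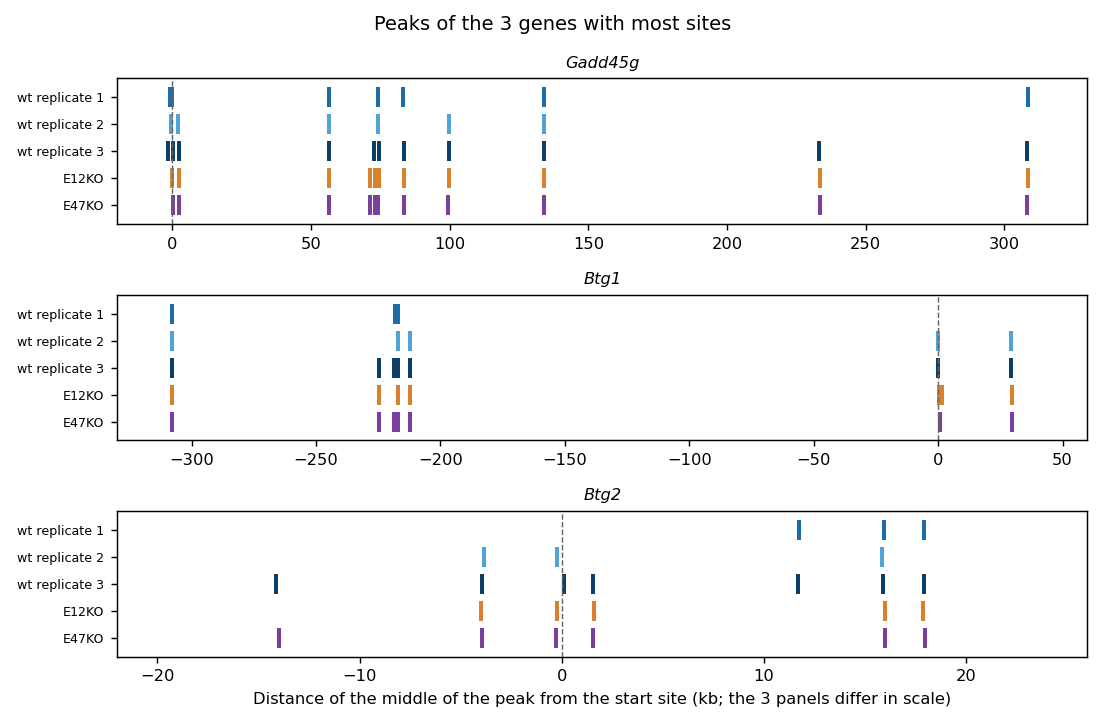
Middle of each peak (vertical ticks) in kb from the start site (dashed line) at Gadd45g, Btg1 and Btg2, with 1 row per list and a different scale in each panel. The ticks line up between lists at most sites: at Gadd45g from 56 to 308 kb downstream, at Btg1 between 212 and 307 kb upstream, and at Btg2 within 20 kb on both sides.

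Btg1, which encodes an antiproliferative factor first known from lymphoid cells, was bound at its start site and in a distant group of sites. The start site on chromosome 10 lay in a peak in wt replicate 2 (407 bp wide), wt replicate 3 (1246 bp), E12KO (1404 bp) and E47KO (2201 bp). Wt replicate 1 had none there. E12KO had a second, 405 bp peak in exon 2, which the wide E47KO peak also covered. The site with the highest fold enrichment of all 10 genes lay 307357 bp upstream in wt replicate 3 (merged region 95771351 to 95772278) and was present in all 5 lists. In wt replicate 1 its fold enrichment was 31.3, its pileup (the height of read coverage) 99 and its −log10 q 120, and 97.6% of the list did not exceed its fold. A second site in all 5 lists lay 216570 bp upstream (95862048 to 95863065) at 23.1-fold. Around it, consensus peaks stood 211950 bp upstream in all lists but wt replicate 1, and further sites 218, 219 and 225 kb upstream were each in 1 wt list and at least 1 knockout. On the other side, a consensus region 29044 bp downstream was missing only from wt replicate 1. Assignment of such distant sites to Btg1 follows from the nearest start site alone.

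Btg2 had 5 consensus regions within 20 kb of its start site on chromosome 1. The start site lay in a peak in wt replicate 2 (1067 bp), wt replicate 3 (2018 bp), E12KO (1422 bp) and E47KO (1115 bp), and not in wt replicate 1. A region 3553 bp upstream in wt replicate 2 had the same pattern. Downstream, a region from 135959087 to 135960577, 15155 bp from the start site in wt replicate 3, was in all 5 lists at 21.9-fold. Beside it, the region 17459 bp downstream was in every list but wt replicate 2, at 16.4-fold. The region 11489 bp downstream in wt replicate 3 (merged 135963647 to 135964318) was found by wt replicates 1 and 3 alone. Both knockouts and wt replicate 2 had no peak there, although its enrichment in wt replicate 1 was 19.1-fold. Among 509 consensus regions of the series with at least that fold, 6 had a peak in neither knockout (1.18%). One wild-type list lacked it as both knockouts did. Btg2 was thus the only one of the 10 genes with a consensus region missing from both knockouts. This is 1 of the 26 consensus regions of these genes, against 230 of all 12322 in the series. A site 1374 bp downstream was in wt replicate 3 and both knockouts, and one 13642 bp upstream in wt replicate 3 and E47KO.

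Most consensus regions of the 10 genes had a peak in each knockout. In E12KO it was 25 of 26, or 96.2% (95% Wilson interval 81.1 to 99.3), against 96.6% of all 12322 consensus regions. In E47KO it was 24 of 26, or 92.3% (75.9 to 97.9), against 93.5%. Both background shares lay within the intervals. These cover counting error only and take the 26 regions as independent, although Gadd45g holds 8 of them and Btg1 and Btg2 5 each. The missing regions were the one 11 kb downstream of Btg2 in both, and the inner Cdkn1a region in E47KO. A peak in all 5 lists was present at 8 of the 26, against 33.7% of all consensus regions, and these 8 were the regions in all 3 wt lists: 1 at Cdkn2b, 4 at Gadd45g, 2 at Btg1 and 1 at Btg2. Of the 18 regions seen in a single wt list, 17 were in wt replicate 3 and 1 in wt replicate 1. A knockout peak overlapped 17 of these 18, against 69.6% of the 14495 single-list regions of the series. Peaks of both knockouts overlapped 8 of the 18, against 43.5%. The series shares pool single-list regions of all 3 wt lists. At Btg1, 1 E47KO peak overlapped both the 218 and the 219 kb site. These shares were not tested. In the other direction, 5 of the 39 E12KO peaks at the 10 genes overlapped no wild-type peak, against 18.3% of all E12KO peaks. In E47KO it was 5 of 42, against 14.6%. Of these 10 knockout peaks, 8 overlapped a peak of the other knockout, against 37.9% of all 7863 such peaks. Both peaks of an overlapping pair are counted, as at Cdkn2b, Cdkn2c and Gadd45g. At Btg1 and Gadd45a the overlapped peak of the other knockout also reached a wt region.

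Of the 26 consensus regions, 17 lay beyond 10 kb of the start site, near the 61.7% of all consensus regions that did. Beyond 50 kb lay 11 of the 26, against 31.4% of all consensus regions. These 11 belong to Cdkn2b, Gadd45g and Btg1 only. The start site lay inside 5 of the 26, against 18% of all consensus regions. Cdkn1b and Cdkn1a had no consensus region beyond 10 kb, and all of Btg2 lay within 20 kb.

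**Figure D4:**
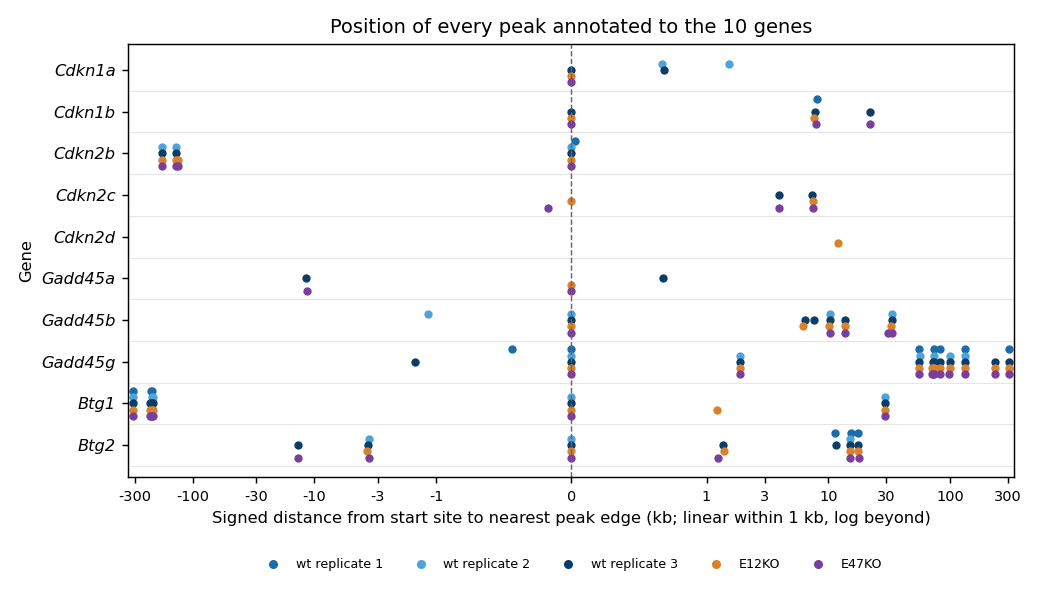
Signed distance in kb from the start site to the nearest edge of each of the 162 peaks (x axis, linear within 1 kb and logarithmic beyond, negative upstream), by gene (y axis) and list (colour). Points of several lists stack at the same place for most sites of Gadd45g, Btg1, Btg2 and Cdkn2b. The single Cdkn2d point is measured from a transcript that does not lie at that gene.

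Only wt replicate 1 carries scores, and its 15 peaks at the 10 genes fell into a low and a high set. Their median fold was 7.83, against 7.48 for the whole list, and 9 of the 15 lay above the list's median. Above 17.3-fold, the level that the top 10% of the list exceeded, stood 6 of the 15: the upstream Gadd45g promoter peak and its 74 kb site, the 307 and 217 kb sites of Btg1, and the 15 and 11 kb sites of Btg2. The CDK inhibitor genes Cdkn1b and Cdkn2b, at 4.22 and 6.16, lay below the list's median. Scores of this list were not compared with other libraries, since the other 4 tables hold none.

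**Figure D5:**
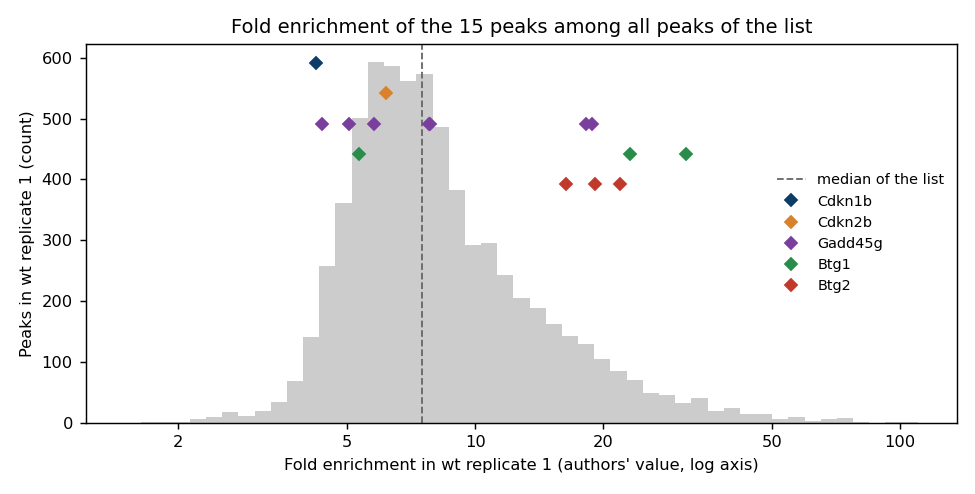
Fold enrichment in wt replicate 1 (x axis, authors' value, log scale) of the 15 peaks at the 10 genes (diamonds, coloured by gene, at arbitrary height) over the histogram of all 6814 peaks (y axis, count). The dashed line is the median of the list, 7.48, and the peaks of Btg1 and Btg2 other than the lowest lie from 16.4 to 31.3.

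Other genes of the same pathways were read from 8 lists holding 85 genes, all of them matched by symbol or synonym. A consensus region within 10 kb was present at 32 of the 85, or 37.6%, against the 16.7% of all protein-coding genes and 32% of those that any list names. Further CDK inhibitors had 1 of 5, Cdk2ap1, which encodes a CDK2-associated protein, at 40.9-fold in intron 3. Cdkn1c, which encodes p57, had 3 consensus regions, all farther than 10 kb. Relatives of BTG and partners of the deadenylase complex had 6 of 11, with Tob1 at 7.83-fold and Cnot6 at 4.99-fold. Besides these 2, the bound genes were Btg3, Tob2, Cnot7 and Prmt1, none of which had a wt replicate 1 peak within 10 kb. Of the BTG and TOB genes in that list, Btg3, Tob1 and Tob2 therefore each had a consensus region, and Btg4 did not.

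Partners of GADD45 had 5 of 12, with the demethylation enzyme gene Tet3 at 4.44-fold and the kinase genes Map3k4 and Mapk8, beside the repair genes Tdg and Ercc5. Genes of the p53 pathway had 5 of 12, with the sestrin genes Sesn2 at 15.3-fold and Sesn1 at 4.57-fold, and with Mdm2, Plk2 and Plk3. Both sestrin regions were in wt replicates 1 and 3 and in E12KO, and not in E47KO or wt replicate 2. CDKs and cyclins had 4 of 12: the D-type cyclin genes Ccnd1, Ccnd2 (6.66-fold) and Ccnd3, and Cdk4. No gene of cyclins A, B or E was among them. Farther than 10 kb, Cdk6 had 4 consensus regions, and Ccne1 and Ccna1 had 1 each. Genes that turn over p27 had 3 of 7, with Cul1 at 8.03-fold and Skp1a at 7.42-fold, and Skp2, whose product brings p27 to its ubiquitin ligase. Quiescence factors had 6 of 13, led by Foxo6 (21.0-fold), Foxo3 (11.6-fold) and Txnip (7.76-fold), and the others were Gas1, Klf4 and Trib1. Pocket proteins and their repressor complex had 2 of 13, Dyrk1a at 20.3-fold and Tfdp2, and the pocket protein genes Rb1, Rbl1 and Rbl2 had none. The shares were read against the background and no list was tested. The lists, too, were chosen with earlier results of these data known.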

How the data were processed

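Peak lists were deposited per library. The submitters' processing notes name MACS2 2.1.0, Picard 1.119 and BWA 0.7.13 and the build mm9, with settings not given in the sources used here. Only the deposited table of wt replicate 1 holds scores, per the file headers: fold enrichment (a ratio), −log10 p and −log10 q, and pileup signal. Its false discovery rate label differs from that of the other lists. Its deposited distances run to the far edge of a peak in 87.5% of peaks, and to the near edge in the other lists, so distances printed here were recomputed to the near edge. The 10 kb rule used the authors' distances. Peak positions are given as deposited, and the base from which they are counted was not checked.

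Wild-type peaks were merged and knockout peaks looked up with an overlap of at least 1 bp, in Python 3.11.15 (pandas 2.3.3), after the overlap code was tested on simulated data. Genes were matched by Entrez identifier to RefSeq (GRCm38.p6), used for names, gene class, order and promoters. Genes, lists and rules were chosen with earlier results of these data known. Named were all 10 genes and, per pathway list, up to 3 with the highest wt replicate 1 fold; bound genes outside that rule were named after their values were seen, and CACGTG was added to the motifs then. No test was planned or made. Alternatives varied the overlap, consensus rule, replicates, thresholds, distance limit and background.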

Additional observations from a re-analysis of the deposited data

How the results depend on the processing

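Requiring peaks to share at least 50% of the shorter one, or measuring from the middle of a peak, left the counts for the 10 genes the same: 7 genes with a consensus region within 10 kb. Requiring all 3 wt lists gave 2 genes against 5.42% of all protein-coding genes, 8 consensus regions, and 8 of them in each knockout. Keeping only peaks of at least the median width of their list gave 27 wt regions, 8 consensus regions (7 in E12KO and 7 in E47KO) and 2 genes against 3.27%. Leaving out one wt replicate gave 2 to 6 genes against 5.27% to 14.5%, 29 to 44 wt regions and 8 to 21 consensus regions, with 8 to 21 of these in E12KO and 8 to 20 in E47KO (in both lists that were left). With wt replicate 1 peaks limited to a −log10 q of at least 10, the share of all genes was 13.3% beside 6 of the 10. It was 12.6% at a limit of 2 kb (6 of 10), 23.7% at 50 kb and 27.6% with no limit (7 of 10 each). Among genes that any list names it was 31.6%, and 32% among the protein-coding ones. No paired analysis was possible because each knockout has 1 library.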

Other observations

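Sites near these genes can carry another gene's name. Within 50 kb upstream of the Cdkn1a start site lay 5 wild-type regions annotated elsewhere, 2 of them consensus regions. One, on chromosome 17 (mm9) from 29193665 to 29194158, 36559 bp from the start site, was in all 5 lists at 6.41-fold in wt replicate 1. The other, from 29215244 to 29216356 and 14361 bp from the start site, was in every list but wt replicate 1. Both are annotated to transcript uc008bsf.1, whose gene has no symbol in the files. In the RefSeq table the non-coding genes Gm41556 and Trp53cor1 stand between Srsf3 and Cdkn1a.

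Upstream of Btg2, a consensus region 17060 bp from its start site is annotated to Chit1 and was in all 5 lists at 12.8-fold. Cdkn1b had one 31383 bp upstream, annotated to Gpr19, and Cdkn2c one 10857 bp upstream, annotated to Faf1, each in every list but wt replicate 1. Near Cdkn2b, Gadd45b and Gadd45g, the only such regions were in wt replicate 3 among the wt lists.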
